A study of Drosophila melanogaster with 4 samples.

Results

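The CG14434 locus lies on the X chromosome of Drosophila melanogaster and comprises CG14434 with the genes that overlap or adjoin it. The 5 genes are CG14434, lncRNA:CR45531, CG43736, CG4558 and Cht11, of 18164 annotated genes. With 5 kb to either side they span 43704 bp, chrX:6842877-6886580 on the dm6 build. Of the 5211 summits of the deposited optimal peak list, 15 fell inside this stretch. The locus was chosen by the rank of its peaks in these same lists, so its ranks, signals and counts are given as a description and none was tested.

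The values come from chromatin immunoprecipitation followed by sequencing (ChIP-seq) of CG1233, carried with a C-terminal GFP in a stably transgenic fly line. Whole embryos of pooled sex, aged 0 to 24 h, were used in 4 biological replicates, which form 1 group with no second genotype, treatment or time, so embryo stages and cell types are mixed in every library. The labels disagree about the libraries: each is described as an input control, yet CG1233 is entered as the antibody target and the assay title is that of transcription factor ChIP-seq. The lists were read as ChIP calls, and every value below rests on that reading.

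A peak list gives the stretches where sequenced fragments pile up over a control, and the summit is the position of the pile's maximum. The pooled list is labelled as holding background as well as peaks. Weak calls of the pooled and replicate lists are therefore given below as calls and not as sites of binding. A long noncoding RNA (lncRNA) gene is transcribed without a known protein product, and one can lie inside an intron of a gene on the opposite strand, as lncRNA:CR45531 does here. Cht11 belongs to the chitinases, enzymes that cleave chitin, the polysaccharide of the insect cuticle and of the lining of the tracheae. CG14434, CG43736 and CG4558 are annotated by RefSeq as uncharacterized proteins.

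The 5 strongest peaks of the locus stood at ranks 1, 2, 3, 4 and 7 of the optimal list, ordered by the deposited signal. Their summit windows, 101 bases centred on the summit, are shown because a word of 8 bases recurs in 4 of them. The sequences are from the RefSeq genome, Release 6 (dm6), forward strand, 5′ to 3′. Capitals mark the word AGGCCCCG or its complement CGGGGCCT, and in the windows of ranks 2 and 3 also the word AGTCTCTTG or its complement CAAGAGACT.
Rank 1, chrX:6861671-6861771: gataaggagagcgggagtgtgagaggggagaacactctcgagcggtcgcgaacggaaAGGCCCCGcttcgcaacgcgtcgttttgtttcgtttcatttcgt
Rank 2, chrX:6862774-6862874: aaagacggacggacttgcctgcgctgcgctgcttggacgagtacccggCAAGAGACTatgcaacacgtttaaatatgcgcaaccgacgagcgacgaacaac
Rank 3, chrX:6853430-6853530: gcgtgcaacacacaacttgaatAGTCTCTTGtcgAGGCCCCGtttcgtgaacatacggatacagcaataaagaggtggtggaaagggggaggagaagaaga
Rank 4, chrX:6866146-6866246: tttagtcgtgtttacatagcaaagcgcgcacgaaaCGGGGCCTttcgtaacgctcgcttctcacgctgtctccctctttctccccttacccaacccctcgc
Rank 7, chrX:6867233-6867333: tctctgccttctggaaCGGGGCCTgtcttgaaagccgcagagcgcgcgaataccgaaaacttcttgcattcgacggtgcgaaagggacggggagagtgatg

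The first word was on the forward strand at ranks 1 and 3 and on the reverse strand at ranks 4 and 7. Its centre lay 10.5 bp to the right of the summit at rank 1, and 12.5, 11.5 and 30.5 bp to the left at ranks 3, 4 and 7. Each of these 4 windows held 1 copy, and the 43704 bp of the locus held exactly 4 copies, so every copy in the locus lay next to one of its strongest summits. Rank 2 was the exception among the 5, and none of the other 10 windows of the locus held the word either.

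Across the series the word was uncommon at summits. It was in 13 of the 5211 optimal windows (0.249%), searched on both strands, and 5 of those 13 were among the strongest 100 peaks. Of these 5, 4 are the windows of the locus from which the word was chosen, so their ranks follow from that choice. The fifth was rank 12, on chromosome arm 3L, whose summit lay 244 bp upstream of lncRNA:CR43334, a transcript that spans the microRNA gene mir-ban. Its window is shown for comparison, with the same word in capitals.
Rank 12, chr3L:628141-628241: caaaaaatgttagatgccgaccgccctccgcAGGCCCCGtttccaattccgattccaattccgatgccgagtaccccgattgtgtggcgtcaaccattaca

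The remaining 8 peaks with the word ranked from 376 to 5203, and 7 of those 8 at 2366 or lower. Most copies of the word lay outside peaks. The 6 chromosome arms held 1114 copies, of which 23 (2.06%) lay inside an optimal peak and 117 (10.5%) inside any pooled call. The share of the arms that these intervals cover is not given here, so neither percentage is read as high or low. The word was chosen after the sequences had been compared, so its recurrence here has no test.

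**Figure D1:**
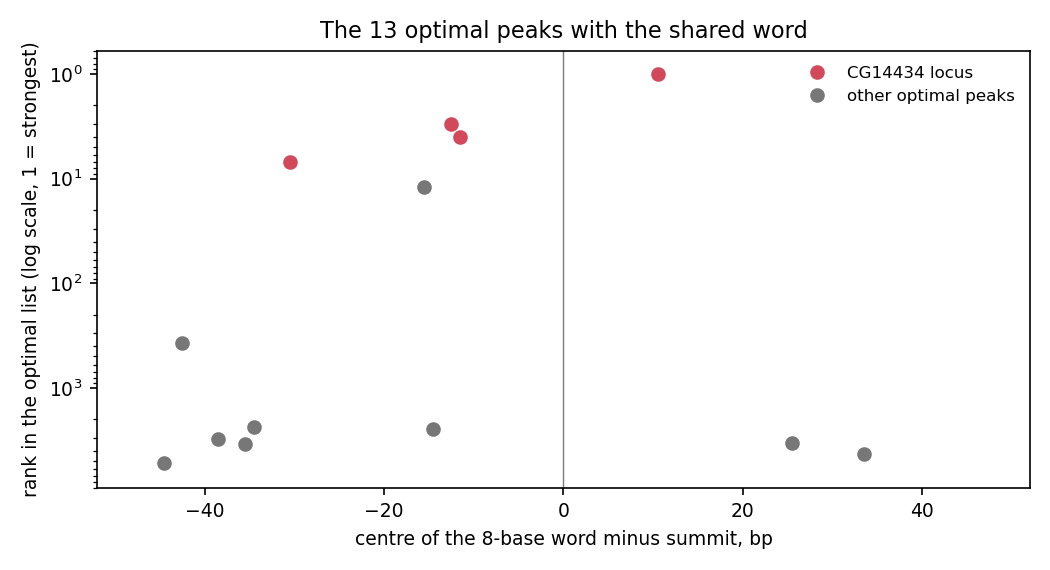
Each point is 1 of the 13 optimal peaks with the word within 50 bp of the summit, placed by the distance in bp from summit to word centre (forward strand, x axis) and by rank in the optimal list (y axis, log scale). The 4 peaks of the CG14434 locus stand at ranks 1 to 7, rank 12 follows, and the other 8 rank from 376 to 5203. The word was chosen from the windows of those 4 peaks of the locus.

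Read in the direction of the word, with 11 bases to either side, the 5 strongest copies align as follows, with the word in capitals. Ranks 4 and 7 are on the reverse strand.
Rank 1, chrX:6861717-6861746: cgcgaacggaaAGGCCCCGcttcgcaacgc
Rank 3, chrX:6853453-6853482: gtctcttgtcgAGGCCCCGtttcgtgaaca
Rank 4, chrX:6866170-6866199: agcgttacgaaAGGCCCCGtttcgtgcgcg
Rank 7, chrX:6867238-6867267: gctttcaagacAGGCCCCGttccagaaggc
Rank 12, chr3L:628161-628190: ccgccctccgcAGGCCCCGtttccaattcc

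In 8 of the 10 pairs of these copies more bases matched after the word than before it. Ranks 3 and 4 shared 8 of the 11 bases after the word and 2 of the 11 before it, and their longest common run was 15 bases. Ranks 1 and 4 shared 6 bases before the word and 4 after it. Over the 10 pairs among the 5 strongest windows the longest common run had a median of 9 bases, against 8 over 4465 pairs of the other peaks among the strongest 100, where it ranged from 5 to 14. The second word, AGTCTCTTG, is part of a run of 11 bases that the windows of ranks 2 and 3 share, and was chosen for that match. This word was in 2 of the 5211 optimal windows, those same 2. Its centre lay 2 bp to the right of the summit at rank 2 and 24 bp to the left at rank 3. The arms held 540 copies of it, 2 of them in the locus.

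No window of the locus was a copy of another. Searched against the genome with blastn at an E-value of at most 1e-05, each of the 15 windows matched only itself. Of 9 listed short words, 5 (TATCGATA, GGTCACACT, CATCNCTA, CACACACA and CACGTG) were in none of the 15 windows. In that order they were in only 1.30%, 0.614%, 1.30%, 2.00% and 0.729% of all optimal windows, so nothing is read from these absences. GAGAG was in 2 of them, at ranks 1 and 7, and in 10.1% of all optimal windows. TATAAA, ATATATAT and CAGCTG were in 1 window each, against 20.1%, 2.63% and 3.88% of all optimal windows. These counts concern letters within 50 bp of a summit, on both strands, and the absences depend on that width. Within 100 bp CACACACA was at 4 of the 15 summits, TATCGATA at 2 and CATCNCTA and CACGTG at 1 each. At that width 8 of the 9 words were found in place of 4, and GGTCACACT alone was absent. The shares over all optimal windows within 100 bp are not given here.

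The strongest windows were also richer in GC than most. Their GC content was 56.4% at rank 1, 55.4% at rank 2, 49.5% at rank 3, 55.4% at rank 4 and 57.4% at rank 7. The median over all 5211 optimal windows was 33.7%, and that of the strongest 100 was 29.7%. Only 8 of the strongest 100 windows reached 49.5% GC, and 5 of those 8 were in the locus. The other 10 windows of the locus had a median of 33.7%, although the highest value in the locus, 62.4%, was at rank 593. The part of base composition in the recurrence of a GC-rich word was not tested.

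CG14434 (FBgn0029915) carried most of the summits. It lies on the reverse strand at chrX:6851909-6867194, with 3 transcripts and 3 start sites. Its longest transcript has an intron of 11959 bp, chrX:6852943-6864901, in which 9 of the 15 optimal summits lay, and a second intron of 1820 bp that held 1 more. In all, 11 optimal summits lay in the gene, or 7.20 per 10 kb. Of the 18164 genes 8 held more summits and 2 others as many, and the shortest of those 10 was 27048 bp long, against 15286 bp for CG14434. Among the 112 genes with at least 5 summits, 1 had a higher density.

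**Figure D2:**
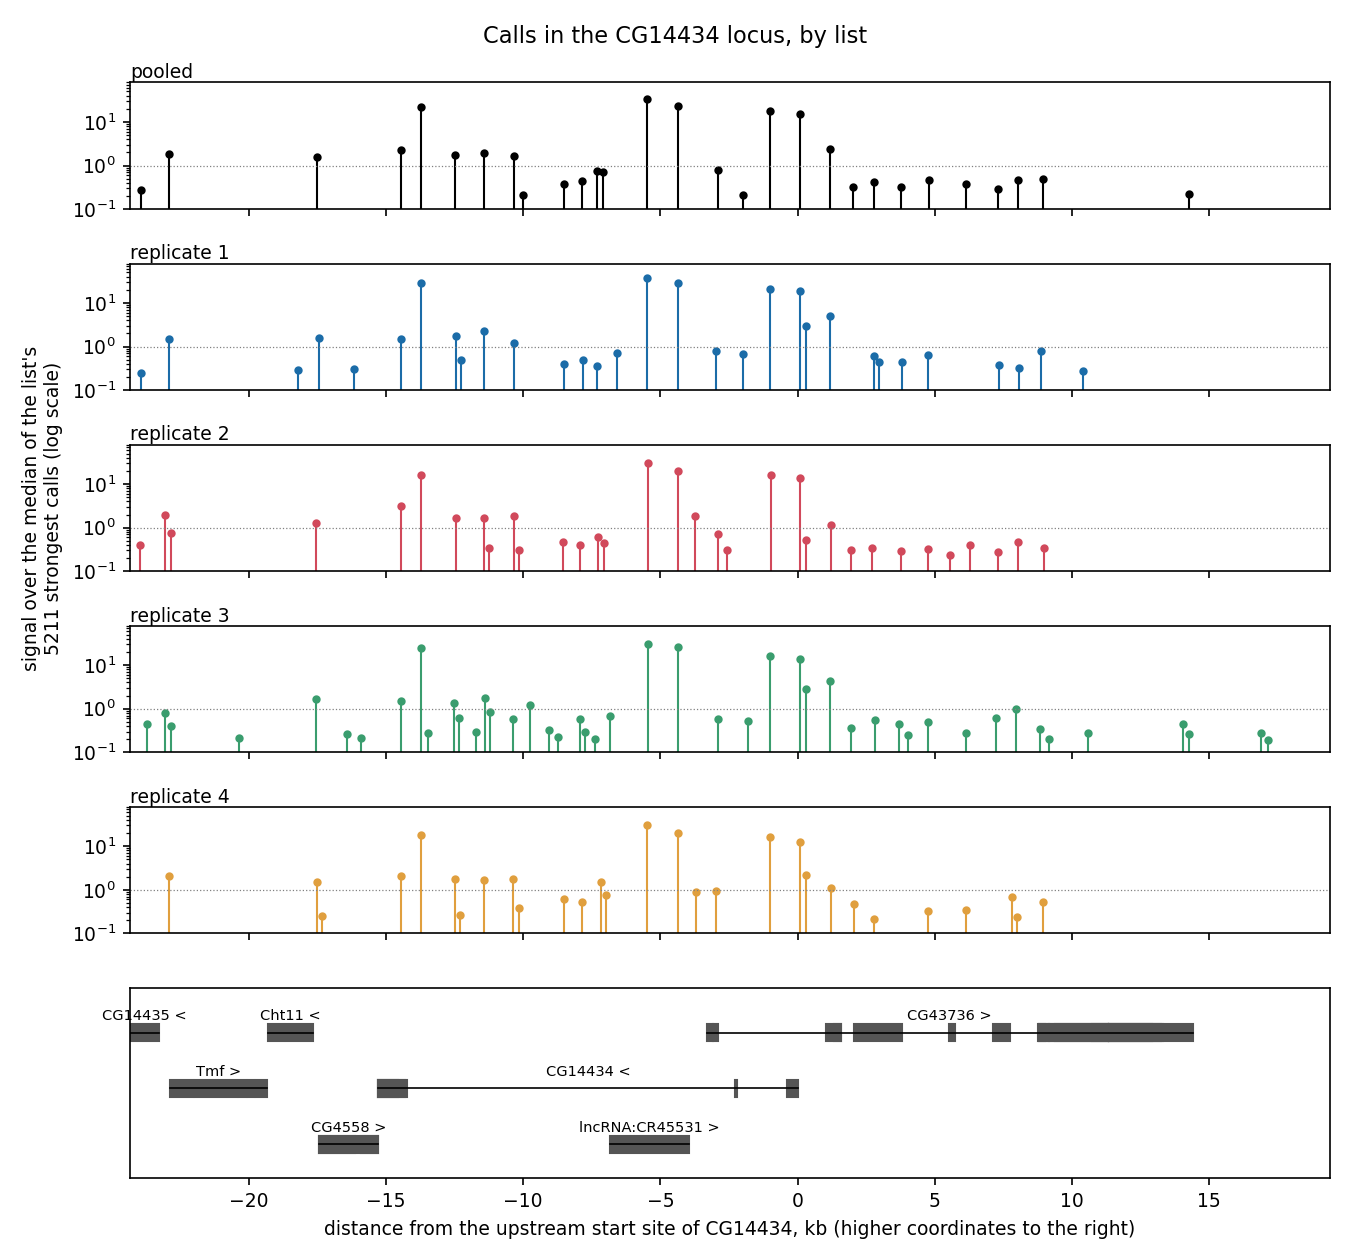
Every call in the locus is drawn at its summit, in kb from the upstream start site of CG14434 (x axis), with its signal divided by the median of the 5211 strongest calls of the same list (y axis, log scale; the dotted line is that median). The upper panels are the pooled list and the 4 replicates, and the bottom panel gives the genes with exons as boxes and strand as an arrowhead. The same 5 tall calls stand in every list, with the shorter calls differing more from list to list.

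The strongest peak of the series, rank 1, lay at chrX:6861379-6862180 with its summit at 6861721, in the single exon of lncRNA:CR45531 and in the long intron of CG14434. It ranked 1, 1, 3 and 1 in replicates 1 to 4. Its signal was 38.0, 30.8, 30.1 and 31.0 times the median of each replicate's 5211 strongest calls (32.5 ± 3.68, SD, n = 4). Replicate 1 stood above the other three, which lay close together. The replicate summits lay 0, 4, 1 and -8 bp from the optimal summit.

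Rank 2, at chrX:6862370-6863580 with its summit at 6862824, lay in the same exon, 1103 bp from the first. It ranked 3, 2, 5 and 2 in the replicates, with signals of 28.0, 20.2, 25.5 and 20.0 times the median (23.4 ± 3.99, SD, n = 4). Replicates 1 and 3 were higher than 2 and 4 here. At 1211 bp it was the widest of all 5211 optimal peaks, and 2 replicates gave a second summit in it, replicate 2 at rank 977 and replicate 4 at rank 3197, 633 and 667 bp to the right of the optimal summit.

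lncRNA:CR45531 (FBgn0267087, forward strand, chrX:6860339-6863235) has 1 exon of 2897 bp, and both summits lay well inside it, with rank 1 at 1382 bp from its start site. Peaks at its own start site were far weaker. The nearest optimal summits, 241 and 459 bp upstream, ranked 4371 and 4014, the weakest peaks of the locus. Rank 4014 had calls at ranks 16554, 5191 and 27832 in replicates 1, 2 and 3 and none in replicate 4. Rank 4371 was matched to the same call of replicate 2, since the 2 intervals overlap. Replicate 2 also had a weaker call inside rank 4371 alone, at rank 8689. Replicate 4 had a call at rank 1338 in it.

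Rank 3 lay at the other end of the long intron, at chrX:6853137-6853880 with its summit at 6853480, which is 585 bp upstream of a short CG14434 transcript. It ranked 2, 6, 6 and 3, with signals of 28.9, 15.8, 24.7 and 18.5 times the median (22.0 ± 5.92, SD, n = 4). This was the widest relative spread among the 5 strongest, again with replicates 1 and 3 above 2 and 4. The replicate summits nonetheless lay within 4 bp of the optimal summit.

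A weaker peak, rank 632, covered the start sites of the 2 short CG14434 transcripts, with its summit at 6852738, 100 bp upstream of the nearer. It ranked 1160, 354, 1212 and 798, and replicate 2 had the highest signal. Between it and lncRNA:CR45531, 3 peaks of the long intron formed a row of similar rank. Rank 1064 was found at ranks 875, 1173, 1423 and 1025, rank 923 at ranks 541, 1137, 815 and 1133, and rank 1217 at ranks 1730, 983, 6837 and 1014. The last was outside the 5211 strongest calls of replicate 3.

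Ranks 4 and 7 lay 1087 bp apart at the upstream end of CG14434, where the gene overlaps CG43736 on the opposite strand. Rank 4, at chrX:6865920-6866607 with its summit at 6866196, was in introns of both genes. It ranked 4, 4, 7 and 5, with signals of 21.3, 16.5, 15.8 and 16.3 times the median (17.5 ± 2.54, SD, n = 4). As at rank 1, replicate 1 was the one that stood apart.

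Rank 7, at chrX:6866839-6867762 with its summit at 6867283, was the promoter peak of the long CG14434 transcript, 89 bp upstream of its start site and in an intron of CG43736. It ranked 5, 8, 8 and 9, with signals of 18.9, 13.8, 13.7 and 12.6 times the median (14.7 ± 2.79, SD, n = 4). All 4 replicates gave a second summit in this peak, 209, 220, 203 and 198 bp to the right. The second summit ranked 291, 6562, 287 and 760, and the pooled list does not call it apart.

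**Figure D3:**
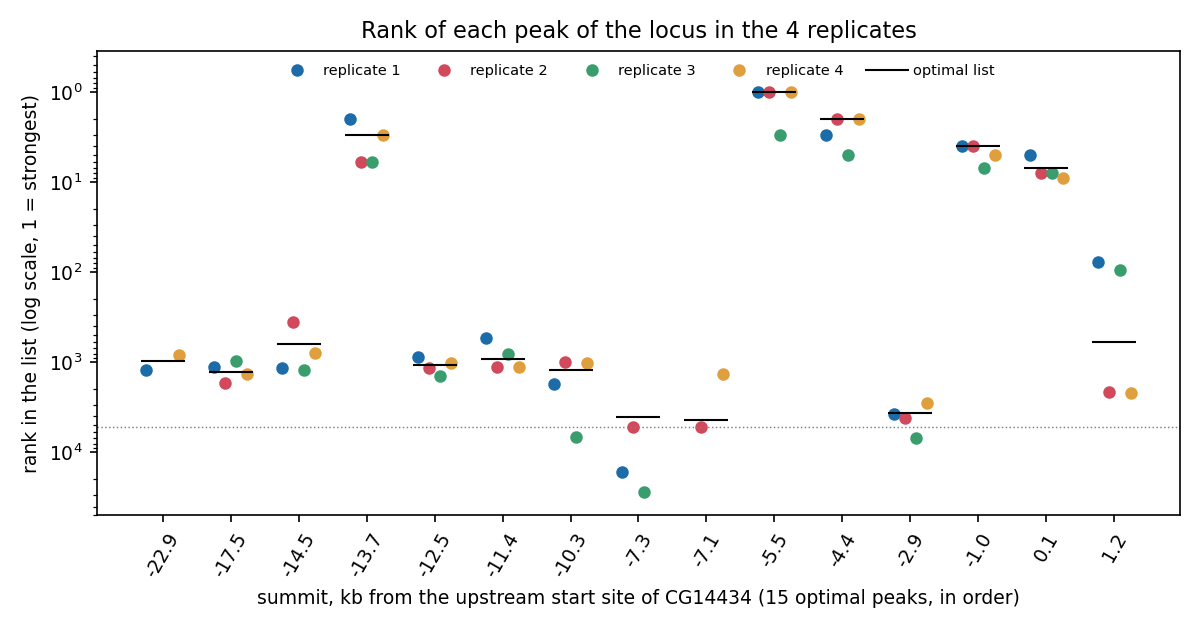
The rank of each of the 15 optimal peaks of the locus (y axis, log scale, 1 at the top) is given for the 4 replicates as points and for the optimal list as a bar, in order along the chromosome (x axis, kb from the upstream start site of CG14434). The dotted line is rank 5211. The 5 strongest peaks stay at ranks 1 to 9 in every replicate, and the peak at 1.2 kb splits into ranks 78 and 94 against 2151 and 2196.

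CG43736 (FBgn0263993, forward strand, chrX:6863888-6881580) has 11 transcripts from 5 start sites, and 4 optimal summits lay in it, all in its first part. Rank 593, at chrX:6868021-6868618 with its summit at 6868384, lay between 2 of its start sites, 157 bp past the one and 124 bp before the other. Its signal was 4.99, 1.13, 4.41 and 1.13 times the median, at ranks 78, 2151, 94 and 2196. Replicates 1 and 3 did not overlap with 2 and 4. By signal, ranks 2, 3 and 923 split the same way, and ranks 632 and 1217 the other way. Replicates 2 and 4 had 3.12 and 2.09 at rank 632, against 1.51 and 1.48 in replicates 1 and 3. At rank 1217 they had 1.82 and 1.81, against 1.23 and 0.578. The share of all optimal peaks that split either way is not given here. No label separates these pairs of replicates, and the cause of the splits was not tested.

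The first start sites of CG43736 had the weak peak of rank 3697, found at ranks 3790, 4119, 6895 and 2848. Its last start site, at 6875986, had no optimal peak within 7602 bp. All 4 replicates had a call next to that site, between 6876020 and 6876157, at ranks 4035, 12952, 14652 and 6571, and its pooled call at rank 7399 was the strongest of the locus below the optimal list.

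Cht11 (FBgn0029913, reverse strand, chrX:6847877-6849517) and CG4558 (FBgn0029914, forward strand, chrX:6849770-6851884) point away from each other and shared 1 optimal peak between their start sites. This was rank 1270, at chrX:6849453-6849876, with its summit 148 bp upstream of Cht11 and 105 bp upstream of CG4558. It ranked 1131, 1696, 979 and 1334, with signals of 1.54, 1.31, 1.64 and 1.54 times the median (1.51 ± 0.137, SD, n = 4). Neither gene held an optimal summit in its body. Relative to its mean this was the smallest spread among the 10 peaks with one of the 5211 strongest calls in every replicate, at a signal far below the 5 strongest.

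All 4 protein-coding genes of the locus thus had an optimal summit within 500 bp of a start site, which 2779 of 13945 protein-coding genes had (19.9%). Of the 15 summits, 8 lay that close to a start site, against 46.5% of all optimal summits. Of the chitinase family, 16 of 17 listed genes were in the annotation and 3 of those had such a peak: Cht11, Cht7 at rank 2065 and Idgf2 at rank 4681. Cht7 was found at ranks 2587, 1937, 2925 and 2165. Idgf2, a chitinase-like growth factor, had calls at ranks 5353 and 3438 in replicates 2 and 4 and none in the others. The remaining 13 of 16 had no optimal promoter peak.

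The last peak of the locus, rank 962, lay outside the 5 genes, 65 bp upstream of Tmf, the fly homologue of a mammalian Golgi protein, and 355 bp upstream of CG14435. It ranked 1206 in replicate 1 and 824 in replicate 4. Its interval was only 141 bp wide, and replicates 2 and 3 had their strongest nearby calls at ranks 907 and 3897 just outside it.

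A replicate was taken to hold an optimal peak when one of its 5211 strongest calls had its summit inside the peak. By this measure 10 of the 15 peaks were held by all 4 replicates, 2 by 3 replicates, 2 by 2 and 1 by 1. Rank 4371 counts as held by 2 only through the replicate 2 call that it shares with rank 4014. Over all optimal peaks 2513 of 5211 (48.2%) were held by all 4. The authors made the optimal list from these replicates and the locus was chosen for strong peaks, so nothing is read from that difference.

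The strongest 10 calls of each replicate included 5 in the locus, in 4 of 4 replicates. In replicate 3, which ranked the strongest peak at 3, 3 of the 4 strongest calls lay on the mitochondrial genome, the first of them at 79.1 times the median. Without the 4 mitochondrial calls of replicate 3, the 5 peaks took ranks 1 to 5 there, as they did in replicate 1. The other 3 replicates had no mitochondrial call. Read depth is unknown here, because the lists hold no counts of reads.

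Summit positions were close between replicates. Over the 12 peaks with a call in all 4 replicates the median SD of the summit was 10.6 bp, against 28.6 bp over 4587 such peaks in the whole list. The whole list holds mostly weaker peaks: over the 94 other such peaks among the strongest 100 the median was 10.4 bp. For the 5 strongest of the locus the SDs were 5.12 bp at rank 1, 1.73 bp at rank 2, 2.16 bp at rank 3, 8.35 bp at rank 4 and 2.63 bp at rank 7. The largest SD of the 12 was 49.7 bp, at rank 1270. Rank 4371, without a call in every replicate, has no SD here. Its calls lay -194 bp from the optimal summit in replicate 2 and -83 bp in replicate 4.

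**Figure D4:**
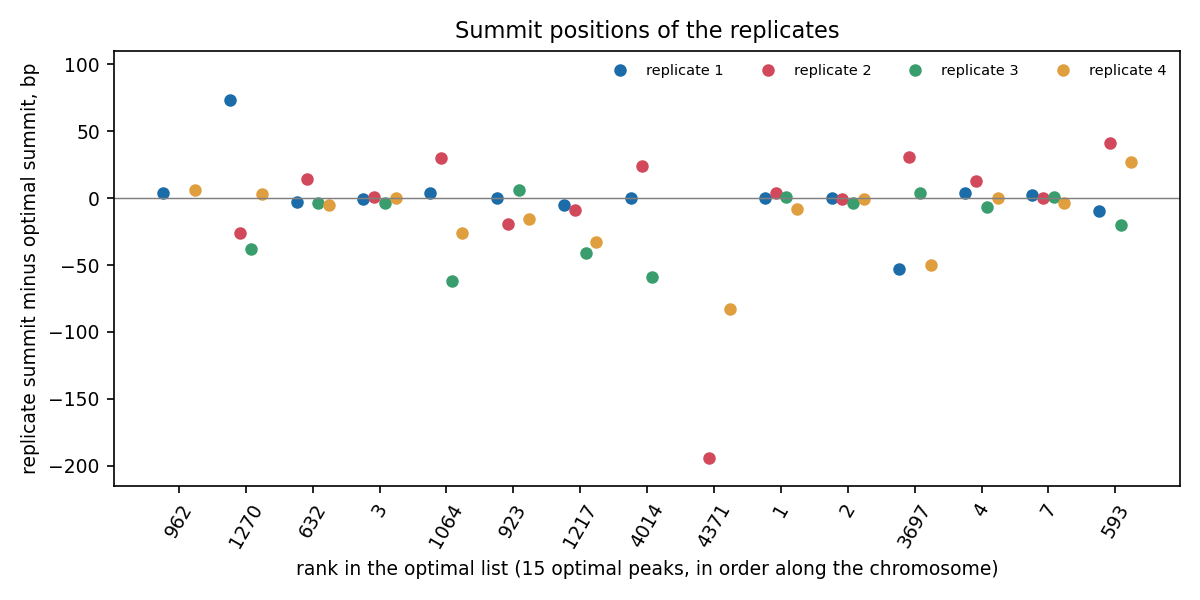
Points give the summit of each replicate's call minus the optimal summit, in bp (y axis), for the 15 optimal peaks in chromosome order, named by rank (x axis). The replicates of ranks 1, 2, 3, 4 and 7 lie within 13 bp of the optimal summit, and rank 1270 reaches 73 bp. The farthest point is at -194 bp, for replicate 2 at rank 4371. A missing point means that the replicate had no call with its summit in the peak.

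The 5 strongest peaks were 802, 1211, 744, 688 and 924 bp wide at ranks 1, 2, 3, 4 and 7. Only 6 of the 5211 optimal peaks were 688 bp or wider, and 5 of them were these. The sixth was rank 23, on the X chromosome near lncRNA:CR44619, at 751 bp. Widths come from the same caller as the signals and are no separate measure of strength. The commonest width in the list, 424 bp, was that of 3854 peaks (74.0%) and of 3 in the locus.

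**Figure D5:**
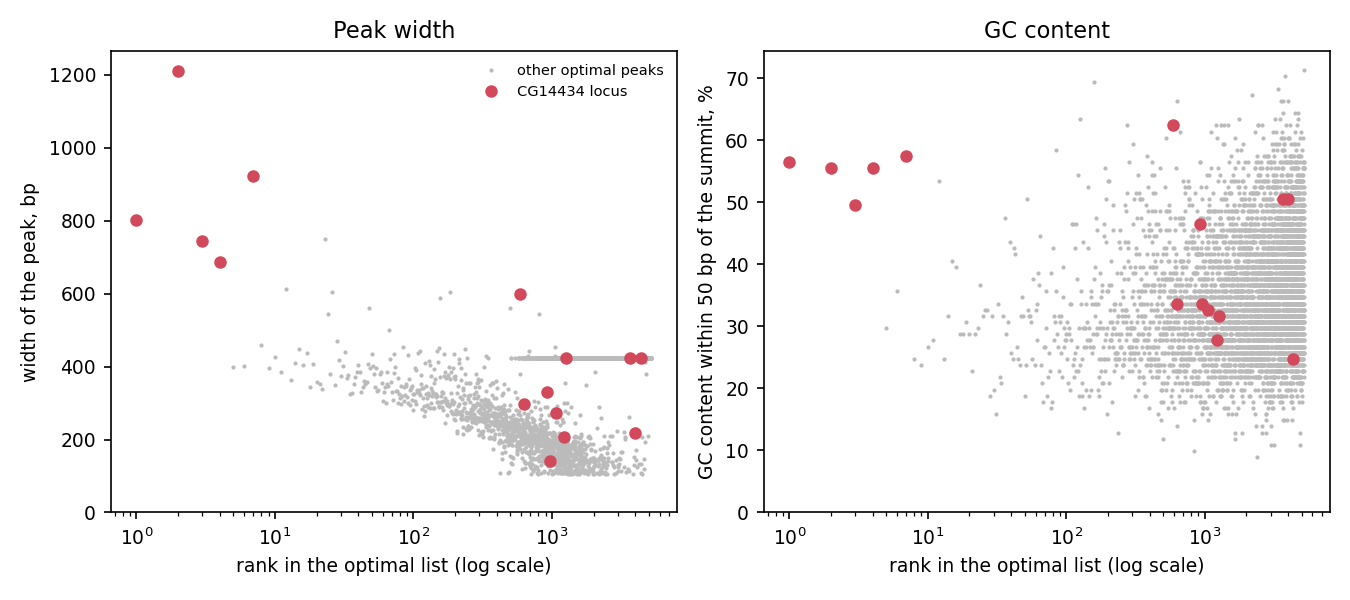
Each point is an optimal peak, placed by rank (x axis, log scale) and by width in bp (left) or GC content within 50 bp of the summit in percent (right), with the 15 peaks of the CG14434 locus in red. The 5 strongest peaks of the locus lie at 688 bp or more, where 1 other peak lies, and at 49.5% GC or more.

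With summits chained where neighbours were at most 5 kb apart, the locus formed a chain of 14 summits over 18719 bp, the most of 3253 chains, with 5 among the strongest 100 peaks. No other chain had more than 2 among them. With 2 kb instead of 5 kb between neighbours the chain held 8. The next chains by summits among the strongest 100 were at ph-p, a Polycomb group gene on the X chromosome, with 7 summits and rank 14 as its strongest, and at lncRNA:CR44149, with 3 summits and rank 39. The chains at Atat, which encodes a tubulin acetyltransferase, and at lncRNA:CR44603 had 4 and 11 summits, with ranks 59 and 89 as their strongest. Each of these 4 had 2 summits among the strongest 100. Of the chains with 1, the one at CG14100 on arm 3L held the strongest, rank 5, as its only summit. In number alone the locus was not the densest: of the 5211 windows of 43704 bp that begin at an optimal summit, 8 held more than 15, the most being 19, and the median was 4.

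Below the optimal list the locus held many weak calls, and by the label of the pooled list these can be background. In the whole pooled list 6336 calls had a deposited −log10 q-value above 2. In replicates 1 to 4 the numbers were 6697, 4575, 10424 and 5400. The pooled list had 29 calls in it, and replicates 1 to 4 had 31, 33, 46 and 29 of 30000 each (34.75 ± 7.68, SD, n = 4). Among the 5211 strongest calls of each replicate the numbers were 16, 16, 16 and 18 (16.5 ± 1, SD, n = 4). All pooled and replicate summits fell into 62 sites when those within 100 bp were joined. The 15 sites with an optimal peak included all 10 that had a strong call in 4 of 4 replicates. Of the 47 others, 29 had a call in 1 replicate only and 6 had calls in all 4.

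As members of the optimal list, the 15 peaks of the locus lay above its threshold by definition. The weakest optimal peak of the series, rank 5211, had a signal of 235.7, and the weakest of the locus, rank 4371, had 266.2. The next pooled call in the locus, rank 7399, had 184.5.

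CG1233 itself, the gene of the tagged protein (chr3L:361472-365681), had no optimal or pooled call within 5 kb. Replicates 1 and 3 had calls there, the strongest at ranks 3808 and 2955, and replicates 2 and 4 had none. Of the lncRNA genes that act in dosage compensation of the X chromosome, lncRNA:roX1 had no optimal summit within 5 kb, and its strongest calls ranked 26420, 15896, 18532 and 18807. lncRNA:roX2 had 2 optimal summits, the stronger at rank 2521. The strongest call of each replicate within 5 kb of it ranked 2803, 2255, 7266 and 2582. The locus was chosen for its strong peaks, so these ranks are not compared with those in lncRNA:CR45531.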

How the data were processed

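ChIP-seq of GFP-tagged CG1233 was measured in 4 biological replicates of whole embryos. Peaks are on dm6, per the labels. The replicate lists, called against 1 shared control alignment set, and the pooled list hold 30000 calls each, and an irreproducible discovery rate step gave the optimal list of 5211 peaks. Aligner, caller and versions are not given in the sources used here. The deposited signal is the authors' own caller score, on a scale that differs between lists, and was used only within a list. The deposited −log10 q-value served as an alternative ranking. The summit is the deposited start plus offset. The optimal list proved, position by position, to be the top 5211 calls of the pooled list. No read counts are given, so precision by depth is unknown.

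Genes and start sites came from Ensembl 115, and sequences from the RefSeq Release 6 genome. Tables were made with Python 3.11.15, pandas 2.3.3 and numpy 2.4.6, and genome matches with blastn 2.17.0. The matching of calls was tested on simulated data. Members and word lists were chosen with earlier results of these data known. Genes named were the 5 members, overlapping genes, CG1233, roX1, roX2, the chitinases, and the 5 chains of summits most like the locus by summits among the strongest 100 peaks. lncRNA:CR43334, lncRNA:CR44619, mir-ban and the shared words were named after their values were seen. Alternatives changed the flank, thresholds, matching, windows and replicates.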

Additional observations from a re-analysis of the deposited data

Results flagged for a closer look

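Of 39 groups of 4 replicate values examined for the locus, 7 had 1 replicate far from the others by Dixon's criterion. Its rate of about 1 in 20 groups by chance holds for independent values without ties. The groups here reuse the same peaks for rank, signal and position. Where all values but 1 are equal, as for the rank at rank 1 and the number of calls, any difference passes. The 7 are therefore not set against that rate. No explanation was tested. At rank 632 the summit of replicate 2 lay 14 bp to the right of the optimal summit, while the others lay 3 to 5 bp to the left. At rank 923 replicate 1 had a signal of 2.22 times its list median, against 1.69 to 1.77. At rank 1217 replicate 3 placed the peak at rank 6837, against 983 to 1730. At rank 1 replicate 3 placed the peak at rank 3 and the others at 1, with 2 mitochondrial calls ahead of it. Replicate 1 had the highest signal at rank 1, 38.0 times the median, and at rank 4, 21.3 times. Replicate 4 had 18 calls of its 5211 strongest in the locus, against 16 in each of the others.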

How the results depend on the processing

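No paired analysis was possible because the 4 replicates form 1 group. Over 21 results and 69 alternatives, 56 values stayed close to those reported and 13 moved. A count was taken as close when within 1.5 times the reported one, and the median rank, summit spread and width when within 1 SD. For the summit spread that SD was 17.2 bp over the peaks, above the 10.6 bp reported, so no lower value could count as moved. For small counts a step from 2 to 1 is past the limit and one from 3 to 2 is not. Within it, the strongest 2605 peaks gave 12 summits in the locus and a chain of 11, −log10 q above 2 gave 20 calls per replicate, and a 200 bp promoter window gave 2 chitinases. Counting all 30000 calls in place of the 5211 strongest gave 34.75 calls per replicate in the locus. Searching 100 bp to either side, 8 of the 9 listed motif words were found at 1 or more summits, against 4 with 50 bp. Counts of single words moved 8 times, 7 of them at 100 bp and the other for GAGAG at 25 bp. Chaining at 2 kb gave 8 summits. The loci of CG1233, roX1 and roX2 together held 4 strong calls in replicate 1 and 1 in replicate 3, against 2 optimal peaks, an alternative added after seeing the data. Leaving out 1 replicate at a time gave 10 to 12 peaks held by all remaining replicates, a median rank of 814 to 931, a median summit SD of 8.47 to 13.1 bp and 16 to 16.7 strong calls. The causes were not tested.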
